A study of Mus musculus with 4 samples.

Results

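Collagen chains are the polypeptides that assemble into the triple-helical proteins of the extracellular matrix. The chains were chosen by gene symbol, as Col followed by the number of the collagen type, the letter a and the number of the chain. Of 24421 genes in the tables, 45 symbols began in this way, and 1 of them, Col4a3bp, is a ceramide transfer protein and was left out, so 44 chains on 15 chromosomes remained. Their levels in tumors of vehicle-treated mice were set against those of TAK-931-treated mice, class by class.

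Collagens are secreted mainly by fibroblasts and related stromal cells, and the chains of basement membranes also by endothelial and epithelial cells. Chains are hydroxylated and folded in the endoplasmic reticulum, exported as procollagen, trimmed of their end propeptides and crosslinked outside the cell. Fibrillar collagens give tissue its tensile strength, basement membrane collagens form sheets under endothelium and epithelium, and the other classes link fibrils to each other, to cells or to basement membranes. In tumors these chains are known as products of the host stroma more than of blood-lineage tumor cells.

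RNA was sequenced in bulk from 4 tumors of J558, a mouse plasmacytoma (antibody-secreting B-lineage) cell line, grown under the skin of female BALB/c mice, 4 weeks of age per the methods. Tumors were taken on day 6. The vehicle-treated libraries (Vehicle-1 and Vehicle-2) came from mice given 0.5% methylcellulose, and the TAK-931-treated libraries (TAK-931-1 and TAK-931-2) from mice given 60 mg/kg TAK-931, an inhibitor of the replication kinase CDC7, by mouth once daily. All 4 libraries share the cell line, the strain, the sex and the site, and the mice kept their own stroma, vessels and immune cells, which a whole-tumor library also holds. The comparison asks how gene expression in the tumor and its surroundings differed with the drug, and nothing in the labels names a batch.

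The libraries held 16487902 to 19589339 counts over 15216 to 16270 genes with at least 1 count. The plasma cell and J558 list (Trap1a, Jchain, Sdc1, Xbp1, Prdm1, Irf4 and Mzb1) had counts for 7 of 7 genes in every library. The TAK-931-treated libraries were less alike than the vehicle-treated ones. Across genes, the log2 of the scaled counts (CPM, each gene's count relative to the same library total after TMM scaling) correlated with an r of 0.977 between the vehicle-treated libraries and 0.865 between the TAK-931-treated ones. Each value for the TAK-931 group is therefore given for both of its libraries, and most fold changes are also given with TAK-931-1 left out.

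Collagen transcripts made up more of the counts after TAK-931 than after vehicle in each pairing of libraries. The 44 chains held 0.298% of all counts in Vehicle-1 (95% Wilson interval 0.296% to 0.301%) and 0.353% in Vehicle-2 (0.350% to 0.355%). In TAK-931-1 they held 1.96% (1.96% to 1.97%), and in TAK-931-2 they held 0.762% (0.757% to 0.766%). The intervals do not overlap, but they cover counting error only and not the spread between tumors. Divided by gene length so that chains can be summed, the collagen level was 546 and 637 CPM per kilobase in the vehicle-treated libraries, 3747 in TAK-931-1 and 1350.0 in TAK-931-2. These sums were 6.33 and 2.28 times the vehicle mean, so the TAK-931-treated libraries differed from each other more than TAK-931-2 differed from vehicle. In a bulk library, fewer or more cells of a type and less or more RNA per cell cannot be told apart.

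No chain passed the test across all genes. The filter on low counts kept 31 of the 44 chains among 13669 genes, and with edgeR's quasi-likelihood test and Benjamini-Hochberg adjustment 0 of these 31 had an adjusted p under 0.05, as did 0% of all genes tested. The lowest adjusted p of a chain was 0.275, which was also the lowest of any gene. At an unadjusted p under 0.05 there were 13 chains, each with the higher fitted level in TAK-931, beside 18.1% of all genes in either direction and 11.6% in that direction. Both TAK-931-treated libraries lay above both vehicle-treated libraries in 24 of the 31 kept chains, against 29.9% of all genes, and both lay below in 1 chain (Col13a1), against 32.8% of all genes. The remaining 6 overlapped. Of the 24, Col4a5 reached the filter's minimum count of 10 only in the TAK-931-treated libraries. The median fitted log2 fold change (TAK-931 minus vehicle) was 1.59 over the kept chains, ranging from -2.15 to 3.03, and 0.02 over all genes tested. The median over chains was 0.87 without TAK-931-1. DESeq2, which estimates the spread in another way, called 13 chains and 11% of the genes it adjusted, and limma-voom called 0.

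The size of the difference depended on which TAK-931-treated library was read. Relative to the mean of the vehicle pair, the kept chains had a median log2 ratio of 2.18 for TAK-931-1 and 0.88 for TAK-931-2. The highest of the 4 libraries was TAK-931-1 in 26 kept chains, against 41.1% of all genes, and TAK-931-1 exceeded both vehicle-treated libraries in 27, against 46% of all genes. TAK-931-2 lay above both vehicle-treated libraries in 26 kept chains, against 42.3% of all genes, and below both in 2, against 44.4% of all genes. TAK-931-1 was over 3 times TAK-931-2 in 10 kept chains, and TAK-931-2 was the higher one in 3 (Col20a1, Col9a3 and Col11a2). Without TAK-931-1, edgeR called 16 of 31 tested chains and 28.7% of all genes, and without TAK-931-2 it called 22 of 34 tested chains and 58.1% of all genes, in fits where the lone TAK-931 library is assumed to vary as the vehicle pair did.

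**Figure D1:**
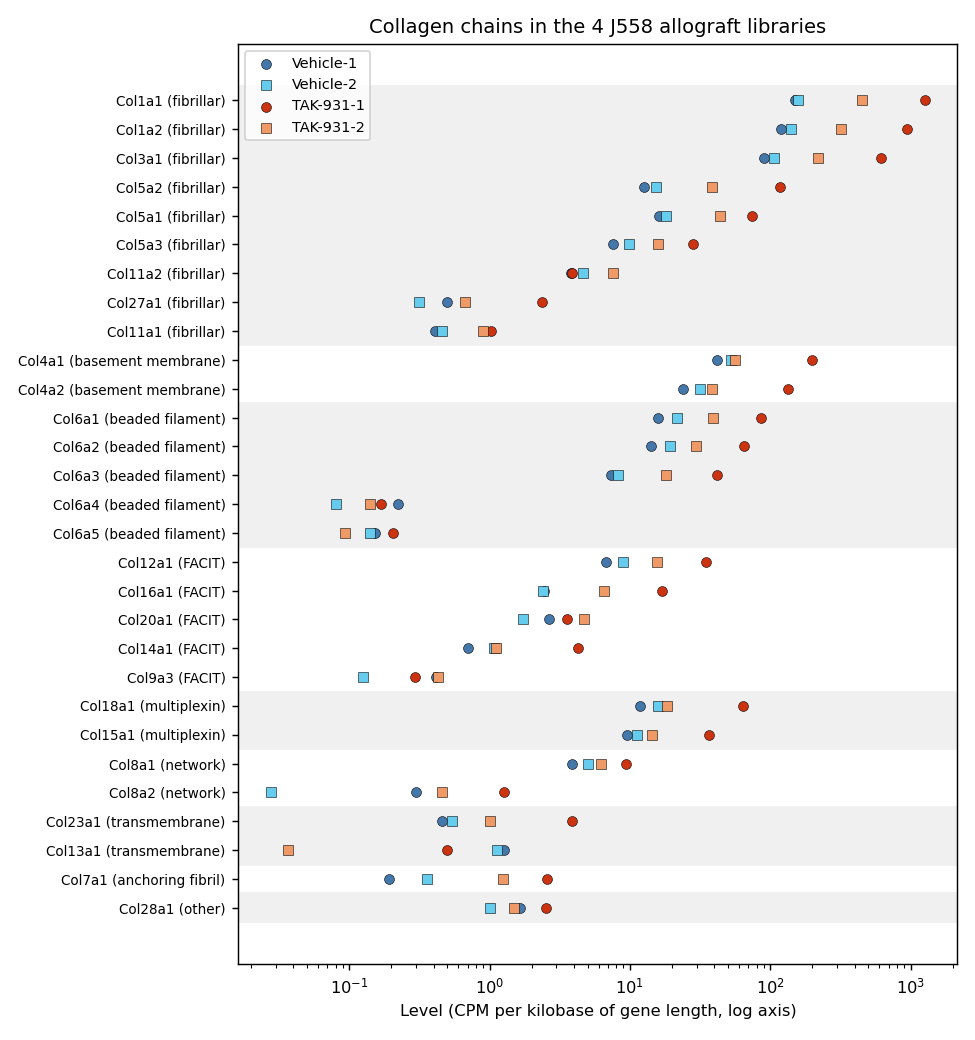
Level of each kept collagen chain with a mean log2 CPM over 0 in the 4 libraries, in CPM per kilobase of gene length on a log axis, with chains grouped by structural class and 1 point per library. The Vehicle-1 and Vehicle-2 points lie close together for the abundant chains, with TAK-931-1 farthest to the right and TAK-931-2 between, as for Col1a1 at 149, 157, 1263 and 448.

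**Figure D2:**
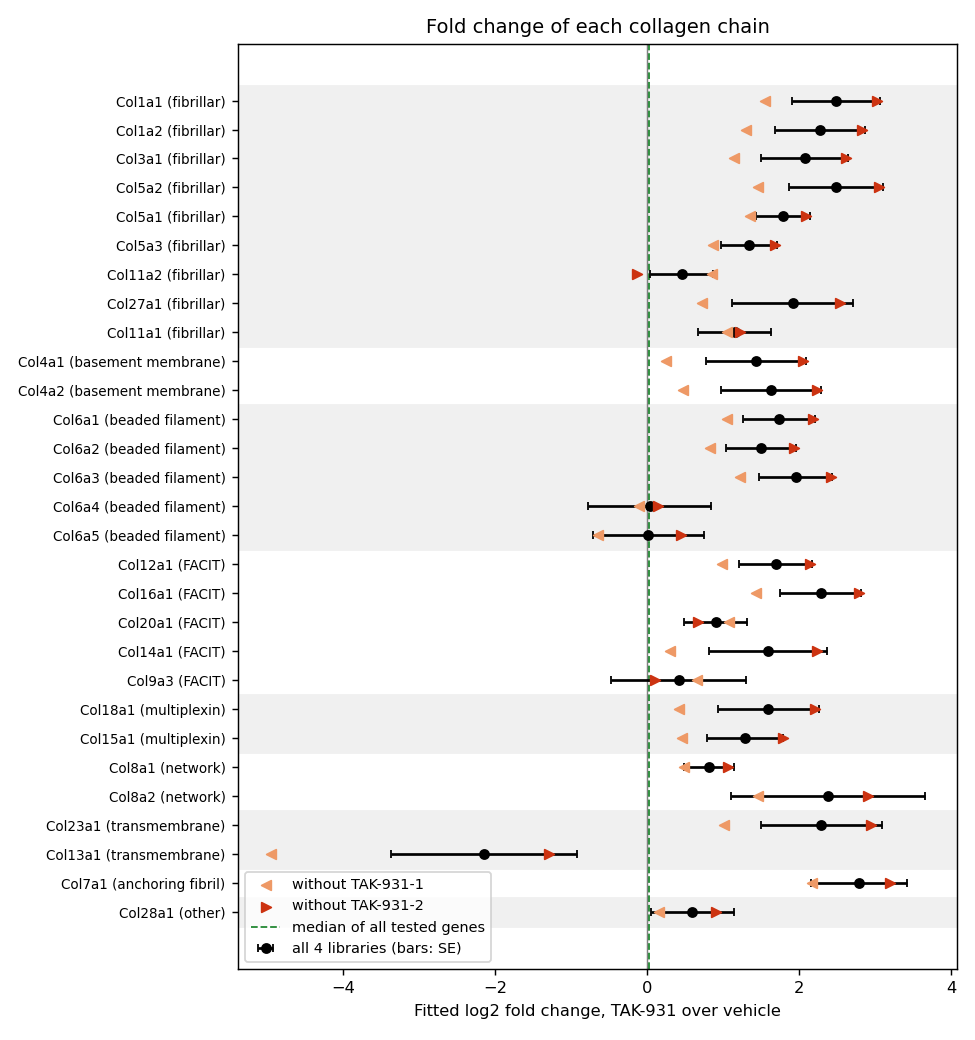
Fitted log2 fold change of TAK-931 over vehicle for each kept chain with a mean log2 CPM over 0, with its standard error as a bar, and arrowheads for the fits without each TAK-931-treated library. Col13a1 (-2.15) is the chain whose fitted value lies below 0, and values without TAK-931-1 are lower than those of the full fit for the abundant chains (1.55 against 2.48 for Col1a1).

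The fibrillar chains, which pack side by side into the banded fibrils of connective tissue, were the most abundant class. Of 11 chains, 9 were kept, 8 had both TAK-931-treated libraries above both vehicle-treated ones (29.9% of all genes did), and 6 had an unadjusted p under 0.05 in edgeR (18.1% of all genes). The class median log2 fold change was 1.91, and 1.15 without TAK-931-1. Its summed level was 400.0 and 454 CPM per kilobase in the vehicle-treated libraries, 3039 in TAK-931-1 and 1096 in TAK-931-2.

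Type I collagen, the main fibril protein of skin and tendon, is a trimer of 2 products, Col1a1 and Col1a2. Col1a1 (chromosome 11, 94936270 to 94951856, mm10) was at 701 and 739.8 CPM in the vehicle pair, 5935 CPM for TAK-931-1 and 2106 CPM for TAK-931-2. This is 720.2 ± 27.7 CPM for vehicle and 4020.4 ± 2707 for TAK-931 (SD, n = 2 each). The vehicle pair was tight and both treated libraries lay well above it, at 8.24 and 2.92 times its mean, and TAK-931-1 was far above TAK-931-2. The fitted log2 fold change was 2.48 (SE 0.58, edgeR unadjusted p = 0.0106, adjusted p = 0.275), and it was 1.55 without TAK-931-1. Col1a2 (chromosome 6, 4505697 to 4541543) gave 618, 722, 4819 and 1655 CPM in the same order of libraries (Vehicle-1, Vehicle-2, TAK-931-1, TAK-931-2), which is used from here on, again with no overlap. Its log2 fold change was 2.27 (SE 0.59, unadjusted p = 0.0158 in edgeR) and was 1.30 with TAK-931-1 left out.

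Type III collagen, a homotrimer of Col3a1 found with type I in distensible tissues, had the same order of libraries. Col3a1 (chromosome 1, 45311538 to 45349706) was at 499.7, 597, 3401 and 1216 CPM. The treated libraries were 6.20 and 2.22 times the vehicle mean, and the log2 fold change of 2.08 (SE 0.57, edgeR unadjusted p = 0.0193) was 1.15 without TAK-931-1. Together Col1a1, Col1a2 and Col3a1 made up 65.7% and 63.6% of the summed collagen level per kilobase in the vehicle pair, and 75.0% and 73.2% in the treated pair.

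The 250 bases upstream of the RefSeq start are shown for the type I and III chains with an entry in the RefSeq promoter table, because these are among the most abundant chains, and for Col13a1, the 1 kept chain whose treated libraries both lay below the vehicle pair. Sequences are from RefSeq on GRCm38.p6, the assembly of mm10, at chr6:4505368-4505617 (plus strand), chr1:45311288-45311537 (plus strand) and chr10:61979109-61979358 (minus strand). The Col3a1 and Col13a1 windows abut the gene bounds of the deposited tables, and the Col1a2 window ends short of them because RefSeq places that start farther upstream. Capitals mark matches on either strand to CCAAT, the core of the CCAAT box, to GGGCGG, the GC box core, and to TATAAA, the TATA box.
Col1a2: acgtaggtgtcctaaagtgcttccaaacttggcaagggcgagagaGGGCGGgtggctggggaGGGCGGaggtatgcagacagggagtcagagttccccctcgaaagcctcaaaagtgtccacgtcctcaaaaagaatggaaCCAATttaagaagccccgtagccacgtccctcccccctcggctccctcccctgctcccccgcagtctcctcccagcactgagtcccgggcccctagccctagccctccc
Col3a1: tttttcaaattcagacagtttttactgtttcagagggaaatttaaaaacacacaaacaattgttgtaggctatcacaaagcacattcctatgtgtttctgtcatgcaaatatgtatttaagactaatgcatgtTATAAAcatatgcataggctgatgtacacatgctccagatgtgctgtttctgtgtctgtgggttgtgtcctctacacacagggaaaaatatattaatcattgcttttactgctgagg
Col13a1: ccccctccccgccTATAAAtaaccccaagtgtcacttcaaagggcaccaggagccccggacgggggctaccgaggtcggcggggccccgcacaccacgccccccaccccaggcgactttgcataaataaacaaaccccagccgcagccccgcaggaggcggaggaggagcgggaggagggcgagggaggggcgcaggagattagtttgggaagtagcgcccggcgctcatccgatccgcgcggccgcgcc
The Col1a2 window held CCAAT and GGGCGG, and the Col3a1 and Col13a1 windows each held TATAAA. Of 32851 mouse promoter windows of the same length, 33.8% held CCAAT, 32.7% held GGGCGG and 12.4% held TATAAA. Of 44 chains, 35 had an entry, and the 28 windows of 26 kept chains held CCAAT in 11 cases, GGGCGG in 18 and TATAAA in 4. The matches are a description of these letters only.

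Type V and XI chains are quantitatively minor fibrillar collagens that sit inside type I and II fibrils and set their diameter. Col5a1 (chromosome 2, 27886425 to 28039510) had the lowest p of any chain, at 135, 153, 623 and 369 CPM. Its treated libraries were closer to each other than those of type I, at 4.34 and 2.57 times the vehicle mean. The log2 fold change was 1.79 (SE 0.35, edgeR unadjusted p = 0.00575, adjusted p = 0.275), and 1.36 without TAK-931-1. Col5a2 (chromosome 1, 45374331 to 45503282) gave 82.9, 101, 775 and 255 CPM, with a log2 fold change of 2.48 (SE 0.62, unadjusted p = 0.0136 in edgeR). Col5a3 gave 46.5, 59.7, 173 and 97.0 CPM, a smaller log2 fold change of 1.35 (SE 0.37, unadjusted p = 0.019 in edgeR). None of these overlapped between groups. Without TAK-931-1 the log2 fold change was 1.46 for Col5a2 and 0.87 for Col5a3.

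The type XI chains behaved unlike the others of this class. Col11a1 was low, at 2.96 and 3.36 CPM against 7.47 and 6.59 CPM in the treated pair, which thus were nearly equal. Its log2 fold change of 1.15 (SE 0.48, edgeR unadjusted p = 0.068) stayed between 1.06 and 1.22 with any library left out. Col11a2 was at 21.2, 25.8, 21.8 and 42.6 CPM, so TAK-931-1 lay within the vehicle range and only TAK-931-2 lay above it. The log2 fold change was 0.45 (SE 0.41), and it was -0.13 without TAK-931-2. Col27a1, a fibrillar chain of cartilage, was at 3.79, 2.40, 18.2 and 5.13 CPM, with a log2 fold change of 1.91 (SE 0.79, edgeR unadjusted p = 0.068) that was 0.72 without TAK-931-1. The cartilage chain Col2a1 and the minor chain Col24a1 were not kept. Col2a1 had 6, 0, 4 and 2 counts. Col24a1 had 8, 6 and 8 counts in the libraries other than TAK-931-1 and 57 counts there.

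The basement membrane chains, which form the type IV sheet under endothelium and epithelium, stood out mainly in TAK-931-1. Of 6 chains 3 were kept, and these 3 had no overlap, with TAK-931 higher (29.9% of all genes). Of them 0 had an unadjusted p under 0.05 in edgeR (18.1% of all genes). Col4a5 reached the minimum count of 10 only in the TAK-931-treated libraries, so its being kept and its direction are linked. Col4a1 (chromosome 8, 11198423 to 11312826) was at 278, 347, 1313 and 371 CPM, so TAK-931-2 was just above Vehicle-2 and TAK-931-1 was 4.20 times the vehicle mean. The log2 fold change was 1.43 (SE 0.66, edgeR unadjusted p = 0.0913), and 0.25 without TAK-931-1. Its partner Col4a2 starts 2 bases away, head to head on the opposite strand, and lay at 154, 204, 857 and 248 CPM, with a log2 fold change of 1.63 (SE 0.66, edgeR unadjusted p = 0.0646) that was 0.47 without TAK-931-1. The difference within the TAK-931 group was thus larger than the difference between TAK-931-2 and vehicle for both partners.

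The chains of the other type IV trimers, known from kidney, eye and ear, were at or near the detection limit, where a count of 0 allows up to 3 counts (0.158 to 0.180 CPM). Col4a5 had 6, 0, 44 and 12 counts and a log2 fold change of 3.03 (SE 1.55), the largest fitted value of any chain, with a wide standard error, and it was 1.93 without TAK-931-1 and 7.73 without Vehicle-1, where the 0 counts of Vehicle-2 stand alone. Col4a3 had 6, 4, 0 and 0 counts, and Col4a4, its head-to-head neighbor, had 10, 7, 4 and 0. Col4a6 had 0 counts in every library.

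The beaded filament chains of type VI collagen, which form microfibrils around cells, split by chain. The chains that make up its common trimer, Col6a1, Col6a2 and Col6a3, had no overlap and an unadjusted p under 0.05, and the alternative chains Col6a4 and Col6a5 overlapped. Col6a3 (chromosome 1, 90766860 to 90843971) was at 79.0, 89.1, 456 and 196 CPM, a log2 fold change of 1.96 (SE 0.48, edgeR unadjusted p = 0.0129), and 1.22 without TAK-931-1. Col6a1 (chromosome 10, 76708792 to 76726044) was at 63.4, 86.0, 343 and 155 CPM, a log2 fold change of 1.74 (SE 0.47, unadjusted p = 0.0188 in edgeR). Col6a2, on the same strand and 85387 bases from Col6a1, was at 53.1, 71.8, 241 and 111 CPM, with a log2 fold change of 1.496 (SE 0.46, unadjusted p = 0.028 in edgeR). Without TAK-931-1 the last 2 gave 1.05 and 0.83. All of the common chains shared the order of libraries seen for type I.

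Col6a4 and Col6a5 were close to 1 CPM. Col6a4 had 1.66, 0.599, 1.26 and 1.05 CPM (log2 fold change 0.03, SE 0.81) and Col6a5 had 1.42, 1.32, 1.89 and 0.875 CPM (log2 fold change 0.02, SE 0.73). Their standard errors allow a change in either direction, and a difference was not detectable at this depth. Col6a6 had 17 counts in TAK-931-1 and 0 in the other libraries.

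The FACIT chains (fibril-associated collagens with interrupted triple helices), which decorate fibrils and tie them to other matrix, had a median log2 fold change of 1.59 over 5 kept chains of 9, and of 0.98 without TAK-931-1. Both treated libraries lay above vehicle in 4, against 29.9% of all genes, and 2 had an unadjusted p under 0.05 in edgeR, against 18.1%. Col16a1, which binds fibrils in skin and cartilage, was the clearest, with vehicle-treated libraries at 12.7 and 12.6 CPM, TAK-931-1 at 88.8 and TAK-931-2 at 34.1. Its log2 fold change was 2.28 (SE 0.53, edgeR unadjusted p = 0.0109), and 1.43 without TAK-931-1. Col12a1 (chromosome 9, 79598987 to 79718722), which binds type I fibrils in tendon and fascia, was at 78.8, 105, 411 and 182 CPM, with a log2 fold change of 1.69 (SE 0.48, unadjusted p = 0.0218 in edgeR), and 0.98 without TAK-931-1. Col12a1 was the most abundant chain of the class in all 4 libraries.

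Col14a1, a further binder of type I fibrils, was at 4.56, 6.95, 27.5 and 7.11 CPM. TAK-931-2 was level with Vehicle-2, and the log2 fold change of 1.59 (SE 0.78) was 0.30 without TAK-931-1. Col20a1 reversed the order of the treated pair, at 11.2, 7.31, 14.99 and 19.6 CPM (log2 fold change 0.90, SE 0.41, edgeR unadjusted p = 0.0874). Col9a3, a chain of cartilage, overlapped between groups at 1.19, 0.359, 0.841 and 1.22 CPM, and its exons overlap those of Tcfl5 on the other strand, a gene with 2 counts in all. Its sister chain Col9a2 was not kept, with 6, 6, 11 and 8 counts. Col9a1, Col19a1 and Col22a1 had 0 counts in every library.

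The multiplexins Col15a1 and Col18a1 are proteoglycan collagens at the outer face of basement membranes (Col18a1 is the precursor of endostatin). They had the order of libraries of the type I chains and of Col4a1 and Col4a2. Col18a1 was at 67.9, 91.4, 374 and 106 CPM, with a log2 fold change of 1.59 (SE 0.66, edgeR unadjusted p = 0.07) that was 0.41 without TAK-931-1. Col15a1 was at 51.0, 59.5, 194 and 75.9 CPM, with a log2 fold change of 1.29 (SE 0.51, edgeR unadjusted p = 0.059) that was 0.46 without TAK-931-1. Neither overlapped, and TAK-931-2 was 1.34 and 1.37 times the vehicle mean. TAK-931-1 was far above the other libraries in both.

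Of the network chains, which form hexagonal lattices, Col8a1 of vessel walls was at 19.7, 25.6, 48.0 and 31.9 CPM, with no overlap and a log2 fold change of 0.82 (SE 0.33, edgeR unadjusted p = 0.062) that was 0.49 without TAK-931-1. Its partner Col8a2 was near the limit in Vehicle-2, at 1.30, 0.120, 5.47 and 1.98 CPM (log2 fold change 2.38, SE 1.28, with 1.46 without TAK-931-1 and 4.87 without Vehicle-1). Col10a1, the marker of hypertrophic cartilage, had 1, 4, 0 and 0 counts.

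The transmembrane collagens, which cross the cell surface instead of being secreted as procollagen, did not share one direction. Col13a1 (chromosome 10, 61838234 to 61979108) was the 1 kept chain whose treated libraries both lay below both vehicle-treated ones, with 68, 60, 30 and 2 counts, or 4.03, 3.59, 1.58 and 0.117 CPM. The log2 fold change was -2.15 (SE 1.22, edgeR unadjusted p = 0.148, adjusted p = 0.358). It kept its sign with any library left out, from -4.95 without TAK-931-1 to -1.29 without TAK-931-2. Here TAK-931-2, not TAK-931-1, was farthest from vehicle. Col23a1 had 2.61, 3.06, 22.1 and 5.71 CPM and a log2 fold change of 2.29 (SE 0.80, edgeR unadjusted p = 0.0409), with 1.01 without TAK-931-1. Col17a1, the hemidesmosome collagen of basal keratinocytes, had 0, 24, 28 and 2 counts, so each group held 1 high library and 1 at or near 0. The keratinocyte list (Krt5, Krt14, Krt10, Krt1, Krt15, Dsg3 and Trp63) had the same pattern, with summed levels of 1.02, 20.04, 8.88 and 1.03 CPM per kilobase and 6, 1, 1 and 6 of its 7 genes at 0. Its part in the Col17a1 counts was not tested. Col25a1 had 2 counts in TAK-931-1 and 0 elsewhere.

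Outside these classes, Col7a1 (chromosome 9, 108953745 to 108984875), which forms the anchoring fibrils that hold epidermis to dermis, had the largest ratios among the chains with counts in all libraries, at 1.78 and 3.30 CPM in the vehicle pair, 23.6 in TAK-931-1 and 11.4 in TAK-931-2. These were 9.29 and 4.51 times the vehicle mean. Its log2 fold change was 2.78 (SE 0.63, edgeR unadjusted p = 0.00963, adjusted p = 0.275), and 2.17 without TAK-931-1. Col28a1, a chain found around nerves, overlapped at 6.99, 4.25, 10.7 and 6.30 CPM (log2 fold change 0.59, SE 0.55, and 0.16 without TAK-931-1). Col26a1 had 2 counts in Vehicle-2 and 0 elsewhere.

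**Figure D3:**
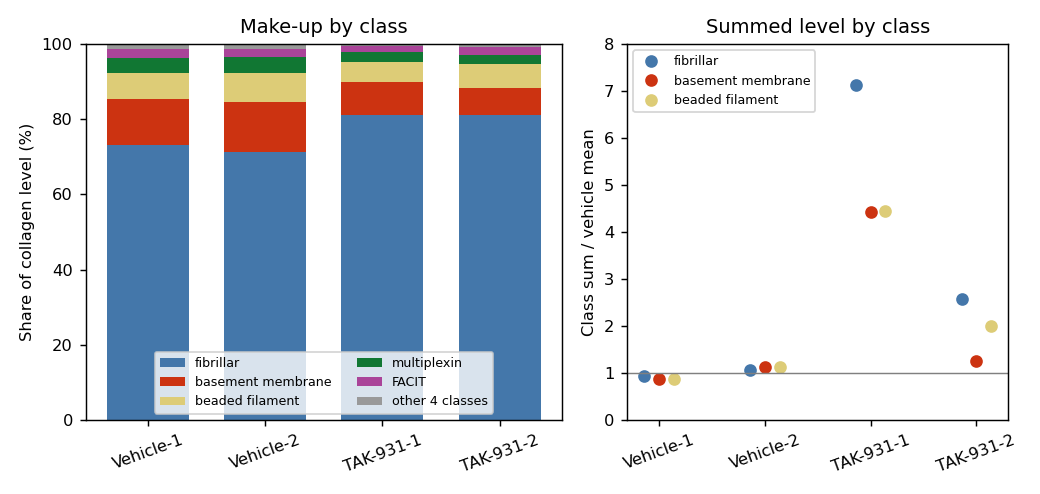
Stacked bars give the share of the summed collagen level (CPM per kilobase, in percent) held by each class in the 4 libraries, and points give the summed level of the fibrillar, basement membrane and beaded filament chains divided by the vehicle mean. Fibrillar chains hold 81.1% and 81.2% in the treated libraries and 73.2% and 71.2% in the vehicle pair, and their sum is 7.12 and 2.57 times the vehicle mean, beside 4.42 and 1.26 times for basement membrane chains.

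The mix of collagens was more alike in the TAK-931-treated libraries than their total level was. Fibrillar chains made up 73.2% and 71.2% of the summed collagen level per kilobase in the vehicle-treated libraries, and 81.1% and 81.2% in TAK-931-1 and TAK-931-2. Basement membrane chains made up 12.1% and 13.2% in vehicle, 8.87% in TAK-931-1 and 7.03% in TAK-931-2. Beaded filament chains lay at 6.93% and 7.74% against 5.16% and 6.45%. In these shares the groups did not overlap, although the smallest p that an exact test of 2 against 2 can give is 0.333. The 4 most abundant chains, Col1a1, Col1a2, Col3a1 and Col4a1, kept the same order in every library.

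Ratios between chains within a library do not depend on how libraries are scaled. The ratio of Col1a1 to Col4a1 per kilobase was 3.55 and 2.998 in the vehicle pair, and 6.36 and 7.98 in the treated pair, that is 3.28 ± 0.39 for vehicle and 7.17 ± 1.15 for TAK-931 (SD, n = 2 each). Col3a1 to Col4a1 gave 2.14 and 2.04 against 3.08 and 3.89. The type I and III chains were thus higher relative to the main type IV chain in both treated libraries, by more than the spread of either pair. Between the fibrillar partners the ratios moved less, with Col1a1 to Col1a2 at 1.24, 1.12, 1.35 and 1.39 and Col3a1 to Col1a1 at 0.602, 0.681, 0.484 and 0.488.

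Partners of 1 trimer varied less against each other, though their groups did not overlap. Col4a1 to Col4a2 was 1.75 and 1.66 in vehicle against 1.49 and 1.45 in TAK-931, and Col6a1 to Col6a2 was 1.12 and 1.12 against 1.33 and 1.31. The exception was Col5a1 to Col5a2, at 1.28, 1.18, 0.632 and 1.14, where TAK-931-1 alone stood apart. Per kilobase, Col5a2 exceeded Col5a1 in TAK-931-1 and was lower than it in the other 3 libraries.

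**Figure D4:**
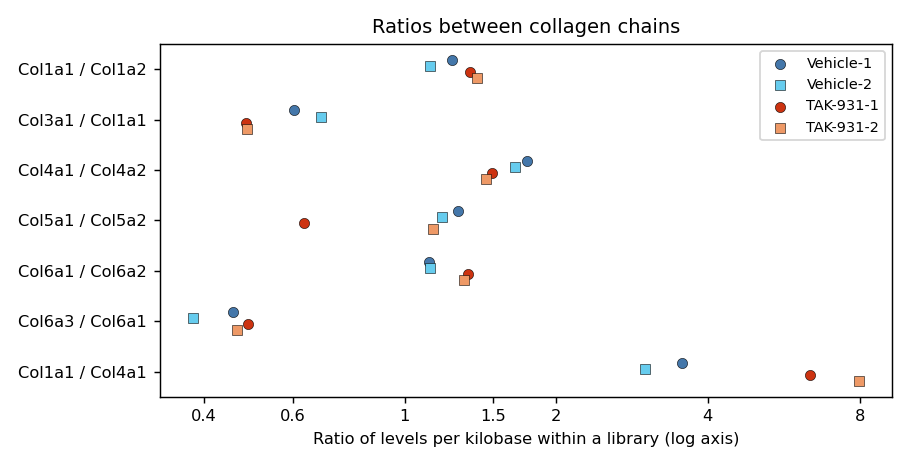
Ratios between pairs of collagen chains within each library, from levels per kilobase on a log axis, with 1 point per library. The ratio of Col1a1 to Col4a1 lies above the vehicle pair for TAK-931-1 (6.36) and for TAK-931-2 (7.98), and Col5a1 to Col5a2 is low in TAK-931-1 (0.632).

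The genes that make, trim, link and bind collagen were described from a list of 48, of which 44 were tested. With edgeR 0 had an adjusted p under 0.05 (limma-voom 0, and DESeq2 10, against 11% of the genes it adjusted), and 11 had an unadjusted p under 0.05, against 18.1% of all genes. Both treated libraries lay above vehicle in 27, against 29.9% of all genes, and below it in 6, against 32.8%, and the median log2 fold change was 1.32, against 0.02. For the steps outside the cell the list medians were 2.52 for the 4 fibril-binding proteoglycans, 1.44 for propeptide removal (6 genes), 1.44 for receptors and uptake (9 genes) and 1.43 for crosslinking (5 genes). For the steps inside the cell they were 0.32 for hydroxylation and glycosylation (14 genes) and 0.39 for folding and export (6 genes). Without TAK-931-1 these medians were 0.90, 0.49, 0.44, 0.67, 0.03 and 0.12 in the same order of lists, and 0.37 for all pathway genes, while without TAK-931-2 they were 3.15, 1.92, 2.07, 1.84, 0.70 and 0.50.

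Inside the cell, P4ha1, a catalytic alpha subunit of collagen prolyl 4-hydroxylase, was at 125 and 121 CPM in vehicle and 98.2 and 112 CPM in TAK-931 (log2 fold change -0.23, SE 0.21). Its alternative subunits, added after their values were seen, had positive fitted values, with P4ha2 at 12.03, 11.1, 29.6 and 15.5 CPM (log2 fold change 0.96, SE 0.43, and 0.42 without TAK-931-1) and P4ha3 at 6.28, 7.79, 28.8 and 6.88 CPM (log2 fold change 1.34, SE 0.78, and -0.035 without TAK-931-1). Serpinh1, the collagen chaperone HSP47, was at 155, 191, 527 and 177 CPM, so TAK-931-2 lay within the vehicle range (log2 fold change 1.02, SE 0.58). P4ha1 and Serpinh1 did not follow the order of type I collagen in both treated libraries. Plod2, the telopeptide lysyl hydroxylase, did, at 2.55, 4.73, 16.6 and 10.6 CPM (log2 fold change 1.90, SE 0.55, edgeR unadjusted p = 0.0234). P3h3, a prolyl 3-hydroxylase family member, was at 9.37, 7.31, 46.5 and 14.6 CPM (log2 fold change 1.88, SE 0.65, edgeR unadjusted p = 0.0408). Creb3l1, a transcription factor that induces procollagen secretion genes, was at 5.28, 3.95, 25.3 and 7.23 CPM (log2 fold change 1.82, SE 0.74). TAK-931-1 was the highest library for Plod2, P3h3 and Creb3l1. Without it the log2 fold change was 1.54 for Plod2, 0.81 for P3h3, 0.64 for Creb3l1 and 0.03 for Serpinh1.

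Outside the cell, Adamts14, a protease that removes the amino-terminal propeptide, was at 4.09, 1.20, 37.4 and 10.4 CPM (log2 fold change 3.17, SE 0.97, edgeR unadjusted p = 0.0278). Pcolce, which speeds removal of the other propeptide, was at 41.0, 48.6, 193 and 63.3 CPM (log2 fold change 1.52, SE 0.59). Among the crosslinking enzymes, Loxl3 was at 29.1, 24.4, 116 and 59.8 CPM (log2 fold change 1.72, SE 0.40, edgeR unadjusted p = 0.0106). Both treated libraries lay above vehicle for each of them, and TAK-931-1 was the higher. Lox was at 33.4, 42.1, 147 and 60.2 CPM (log2 fold change 1.45, SE 0.50, unadjusted p = 0.0388 in edgeR). The fibril-binding proteoglycans were uneven within the TAK-931 pair. Dcn (decorin) was at 21.2, 23.7, 278 and 46.9 CPM (log2 fold change 2.85, SE 0.91), and Lum (lumican) at 5.22, 8.39, 101 and 11.4 CPM (log2 fold change 3.05, SE 1.12). Without TAK-931-1 the log2 fold change was 1.97 for Adamts14, 0.50 for Pcolce, 1.16 for Loxl3, 0.67 for Lox, 1.06 for Dcn and 0.75 for Lum.

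Of 9 tested receptor and uptake genes, 7 lay above vehicle in both treated libraries (29.9% of all genes) and 2 below it (32.8%). Mrc2, which takes up collagen for degradation, was at 17.1, 15.5, 104 and 36.2 CPM (log2 fold change 2.10, SE 0.57, edgeR unadjusted p = 0.0185). Itga11, the fibroblast integrin for fibrillar collagen, was at 2.37, 4.07, 23.6 and 4.37 CPM (log2 fold change 2.12, SE 0.95). Ddr2, a kinase receptor for fibrillar collagen, was at 5.22, 7.31, 36.9 and 9.68 CPM, and Lair1, an inhibitory collagen receptor of leukocytes, at 10.2, 11.4, 58.2 and 13.7 CPM. In the last 3 genes TAK-931-2 was at 1.36, 1.55 and 1.27 times the vehicle mean, and TAK-931-1 lay far above it. The log2 fold change was 1.89 (SE 0.75) for Ddr2 and 1.74 (SE 0.75) for Lair1. Without TAK-931-1 the log2 fold change was 1.15 for Mrc2, 0.44 for Itga11, 0.62 for Ddr2 and 0.34 for Lair1.

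Marker lists of other cells differed in how far they followed the collagens. The sum of 10 fibroblast markers (Pdgfra, Pdgfrb, Thy1, Fap, Postn, Fbln1, Fbln2, Dpt, Pi16 and Fstl1) was 90.7 and 114 CPM per kilobase in vehicle, 748 in TAK-931-1 and 210.5 in TAK-931-2. These are 7.30 and 2.05 times the vehicle mean, beside 7.12 and 2.57 times for the fibrillar chains. In TAK-931-1 each of the 10 genes lay above both vehicle-treated libraries (46% of all genes did), and in TAK-931-2 7 did (42.3% of all genes). The other 3, named after their values were seen, were Fbln1, Pdgfra and Dpt, at 1.001, 0.873 and 0.524 times the vehicle mean in TAK-931-2. The summed collagen level divided by this marker sum was 6.02, 5.58, 5.01 and 6.41, and its groups overlapped. Fibrillar chains divided by it gave 4.41, 3.97, 4.06 and 5.21, which overlapped too. Basement membrane chains divided by it gave 0.729 and 0.738 in vehicle and 0.444 and 0.451 in TAK-931, with no overlap. Thy1, singled out after its values were seen, gave 21.9, 31.6, 296 and 44.9 CPM per kilobase of the marker sum. The overlap for all collagen chains and for fibrillar chains depends on keeping Thy1 in that sum.

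The 9 endothelial markers (Pecam1, Cdh5, Kdr, Tek, Tie1, Emcn, Vwf, Esam and Flt1) summed to 87.1 and 101 CPM per kilobase in vehicle, 311 in TAK-931-1 and 87.4 in TAK-931-2. They were highest in TAK-931-1 for 9 of 9 genes. In TAK-931-2 the sum was 0.927 times the vehicle mean, but the genes spread both ways, with 3 of 9 above both vehicle-treated libraries, against 42.3% of all genes, and 4 below both, against 44.4%. Tek and Vwf, at 0.474 and 8.02 times the vehicle mean in TAK-931-2 and chosen after their values were seen, were the lowest and the highest. Basement membrane chains divided by them gave 0.760, 0.832, 1.07 and 1.09, and fibrillar chains 4.59, 4.48, 9.76 and 12.5. The part of fibroblast or endothelial RNA in the collagen values was not tested.

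Lists of skeletal muscle and adipocyte genes were also highest in TAK-931-1. The 10 skeletal muscle markers (Acta1 and Ckm among them) summed to 77.4, 76.6, 521 and 23.0 CPM per kilobase, with 2 genes at 0 in TAK-931-2. The 7 adipocyte markers summed to 66.6, 101, 430 and 42.1 CPM per kilobase, with 3, 1, 0 and 2 genes at 0. Nearly all of this sum was Fabp4, singled out after its values were seen, at 62.9, 95.8, 397 and 40.1 CPM per kilobase, and Cidec was lower in both treated libraries, at 2.62, 3.38, 2.08 and 1.56 CPM per kilobase. In both lists TAK-931-2 lay below the vehicle-treated libraries, whereas for 26 of 31 kept collagen chains it lay above them. The 7 macrophage markers summed to 362, 287, 4960 and 976 CPM per kilobase, 15.3 and 3.01 times the vehicle mean. The 7 plasma cell and J558 genes summed to 5147 and 5410 CPM per kilobase in vehicle, 2433 in TAK-931-1 and 6794 in TAK-931-2. Their sum was thus lowest in the library with the highest collagen share. Jchain, singled out after its values were seen, gave 2416, 2690, 1490 and 3862 CPM per kilobase of it. In TAK-931-2, 4 of the 7 genes lay above both vehicle-treated libraries, against 42.3% of all genes, and 3 below both, against 44.4%. What part each of these tissues had in the collagen values was not tested.

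**Figure D5:**
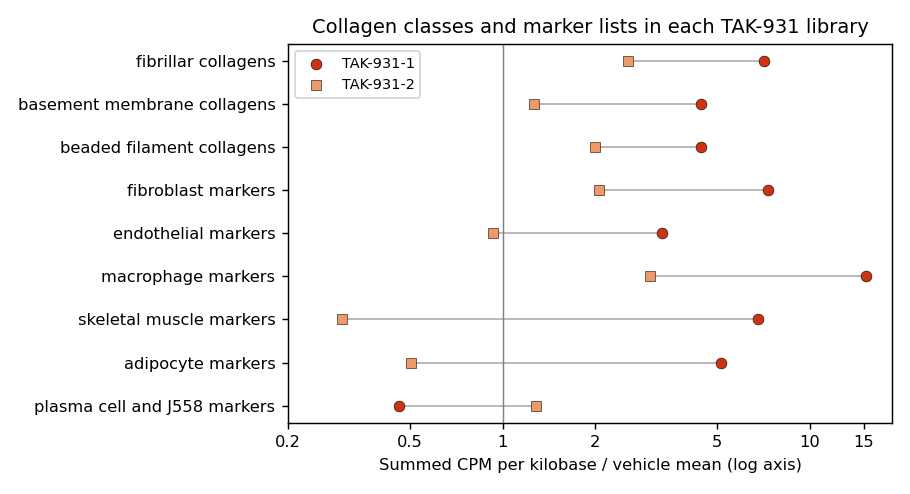
Summed level (CPM per kilobase) of collagen classes and marker lists in TAK-931-1 and TAK-931-2, each divided by the vehicle mean, on a log axis with a line at 1. Fibroblast markers lie at 7.30 and 2.05, close to fibrillar collagens at 7.12 and 2.57, while skeletal muscle markers lie at 6.77 and 0.299.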

How the data were processed

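RNA-seq was performed on 4 J558 allografts, 2 vehicle-treated and 2 TAK-931-treated. The authors deposited raw read counts per gene, 1 table per library, made with STAR 2.6.1c and featureCounts (version not given) on mm10, per the submitters' processing notes. The other deposited column that was used, the authors' gene length in bases, served to divide CPM by length. The strand setting and annotation release are not given in the sources used here, so genes on opposite strands cannot be separated. Of counts from 1 to 20, 17.9% to 23.9% were odd, so both mates of a pair appear to be counted singly, and intervals and floors are too narrow.

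Genes were kept with filterByExpr (minimum count of 10), libraries were scaled by TMM, and groups were compared with the robust quasi-likelihood test of edgeR 4.0.16 in R 4.3.3, two-sided, with treatment as the only term and Benjamini-Hochberg adjustment over 13669 genes at 0.05. Standard errors are of the fitted log2 fold change. CPM and ratios are from TMM-scaled totals with no added count. The log2 ratios to the vehicle mean and the correlations use 2 added counts, which the fitted values do not. Replicates of a group were distinct (chi-square per degree of freedom 7.94 for vehicle and 259 for TAK-931). The labels do not say more of their origin than separate allograft numbers, so p-values measure the spread between these libraries.

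Chains, classes, pathway and marker lists were chosen with earlier results of these data known. Every chain is accounted for: kept chains with a mean log2 CPM over 0 by library, the rest by counts. In each pathway list the 2 tested genes with the largest fitted log2 fold change among those with a mean log2 CPM over 2 were named, plus Serpinh1, P4ha1, Lox, Ddr2 and Lair1. The class list also holds Col21a1, which was not analysed here, as was the marker Cnmd. Alternatives were other size factors, library size only, other filters, halved counts, a replicate block, limma-voom (limma 3.58.1), DESeq2 1.42.0, a fit without robust estimation, CPM without length, and each library left out in turn.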

Additional observations from a re-analysis of the deposited data

How the results depend on the processing

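Of 396 refitted chain values, 335 kept their direction without a call, 50 kept it with a call and 11 had the opposite direction, in 5 chains near the detection limit or with uneven libraries. DESeq2 called 13 chains and 10 pathway genes (11% of the genes it adjusted), and 21 and 20 had an unadjusted p under 0.05 (23.5% of all genes). With each library left out in turn, called chains ranged from 0 to 22 and called pathway genes from 0 to 32. The share of all genes called in these fits ranged from 0% to 58.1%. Chains at an unadjusted p under 0.05 ranged from 7 to 23 and pathway genes from 7 to 33 (6.86% to 63.1% of all genes). The median log2 fold change then ranged from 0.87 to 2.16 for all chains, 1.15 to 2.57 for fibrillar, 0.47 to 2.14 for basement membrane, 0.83 to 2.05 for beaded filament, 0.98 to 2.14 for FACIT, 0.44 to 2.00 for multiplexin, 0.98 to 2.75 for network, -2.55 to 2.38 for transmembrane chains and 0.37 to 1.82 for pathway genes. The transmembrane median was 2.38 with at least 10 counts in every library, where fewer chains are tested. With no filter the network median was 0.79 and 17 pathway genes had an unadjusted p under 0.05 (15.9% of all genes), and limma-voom gave 6 (14.3%). Opposite directions were found for Col6a5 with no filter (-0.016), with limma-voom (-0.070), with the replicate block (-0.077) and over left-out libraries (-0.65 to 0.44), and over left-out libraries for Col17a1 (-2.55 to 6.81), Col6a4 (-0.54 to 0.94), Col9a3 (-0.22 to 1.51) and Col11a2 (-0.13 to 0.85). The cause was not tested. Without division by length, fibrillar shares were 70.2%, 68.1%, 78.0% and 78.6%, and basement membrane shares 14.4%, 15.6%, 10.7% and 8.48%. With the replicate number as a replicate block, 0 chains were called beside 1.05% of all genes (144), 16 had an unadjusted p under 0.05 and the chain median was 1.38, and 14 pathway genes had an unadjusted p under 0.05 (16.2% of all genes). Deviations of libraries with the same number correlated at 0.004. With 2 libraries per group the deviations mirror each other, so this value cannot show whether equal numbers mark a shared origin. Leaving out a library leaves 1 in its group, which is assumed to vary as the other group did. A floor of 3 counts limits the 13 chains not kept.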

Other observations

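Markers of cartilage and nerve cells were low in every library. The 5 chondrocyte markers summed to 0.289, 0.249, 1.37 and 0.589 CPM per kilobase in Vehicle-1, Vehicle-2, TAK-931-1 and TAK-931-2, and the 5 Schwann cell markers to 1.04, 1.08, 1.69 and 1.34. Col4a3bp, the ceramide transfer protein whose symbol begins like a type IV chain, was at 44.2, 49.2, 52.7 and 36.7 CPM, with a log2 fold change of -0.06 and overlapping groups.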
